A study of Rattus norvegicus with 24 samples.

Results

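The carbohydrate sulfotransferases described here are the 10 loci named Chst1, Chst2, Chst3, Chst7, Chst8, Chst9, Chst10, Chst11, Chst12 and Chst15 in the deposited gene annotation. They were picked by name out of 26641 named loci, among which 14 carry a Chst name. A name shared by several loci was to be resolved by the highest mean level, but each of the 10 names had a single locus, so no measured level decided which locus was used. Messenger RNA was sequenced from cortex beside the lesion (perilesional) and from thalamus on the injured side (ipsilateral) of adult male Sprague-Dawley rats killed 3 months after surgery, with 6 rats given a traumatic brain injury (TBI) by lateral fluid percussion and 6 sham-operated rats that went through the same surgery without the impact. Each rat gave 1 library per region, so there were 6 libraries in each of the 4 groups (sham cortex, TBI cortex, sham thalamus, TBI thalamus) and 24 in all. No transgene or drug treatment separates the groups. The study took its TBI rats for sequencing from those with a bright rim around the lesion on magnetic resonance images, so they stand for injured rats with persistent inflammation rather than for all injured rats.

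Carbohydrate sulfotransferases sit in the Golgi membrane and move a sulfate group from the donor PAPS onto one particular hydroxyl of a sugar in a growing glycan. Chst3, Chst7, Chst11, Chst12 and Chst15 act on the N-acetylgalactosamine of chondroitin sulfate, the chain carried by the lecticans of the perineuronal net and by the glial scar. Chst1 and Chst2 sulfate the galactose and N-acetylglucosamine of keratan sulfate and related glycans, Chst8 and Chst9 sulfate terminal N-acetylgalactosamine on the N-glycans of secreted glycoproteins, and Chst10 makes the HNK-1 epitope of neural adhesion molecules.

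The values, here called normalized counts, are numbers of sequenced fragments scaled by one factor per library. By the coordinates of the deposited table, whose build is not settled since the labels list Rnor_5.0 and the methods also name RGSC3.4 as the reference genome, the locus of Chst9 spans 6790090 to 7070129 on chromosome 18, that of Chst2 102645385 to 102651465 on chromosome 8, that of Chst11 26767368 to 26981333 on chromosome 7 and that of Chst8 91681285 to 91822788 on chromosome 1. Depth lay between 30568928 and 54608919 fragments per library. Within a region, TBI and sham rats were compared with limma after taking log2(normalized count + 1), and the word called means an adjusted p (Benjamini-Hochberg, over all named loci with a mean of at least 10) below 0.05. Log2 fold changes on this scale understate the change of low genes. Tissue identity genes fitted the labelled regions: Lhx9, a thalamic transcription factor, had normalized counts from 1354 to 2058 in the thalamus and from 9.15 to 21.0 in the cortex, and Neurod6, a cortical one, lay between 1625 and 2950.4 in the cortex and between 45.5 and 86.4 in the thalamus. Summed normalized counts of 7 choroid plexus markers were over 10000 in 6 libraries (sham cortex of rats 26 and 34, sham thalamus of rats 34 and 50, and both regions of TBI rat 45), and each count of members called is given with and without them.

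In the perilesional cortex, 1 of the 10 sulfotransferases was called, Chst9, and it was higher in TBI rats. Of all 15493 loci tested there, 29.2% were called, 14.3% as higher and 14.9% as lower. In the ipsilateral thalamus, 3 of the 10 were called, and all 3 (Chst2, Chst8 and Chst11) were lower in TBI rats, where 35.4% of 15564 loci were called, 14.5% as higher and 20.9% as lower. The cortex count was 2 with TMM or upper quartile scaling, with edgeR or DESeq2, and with all 24 libraries in 1 fit, each time by the addition of Chst12. Without the 6 libraries rich in choroid plexus transcripts 1 member was called in the cortex, and the 3 called in the thalamus held Chst15 in place of Chst8. The median log2 fold change of the members was 0.058 in the cortex, where the median over all loci was -0.0096. In the thalamus the same medians were -0.17 for the members and -0.023 for all loci.

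**Figure D1:**
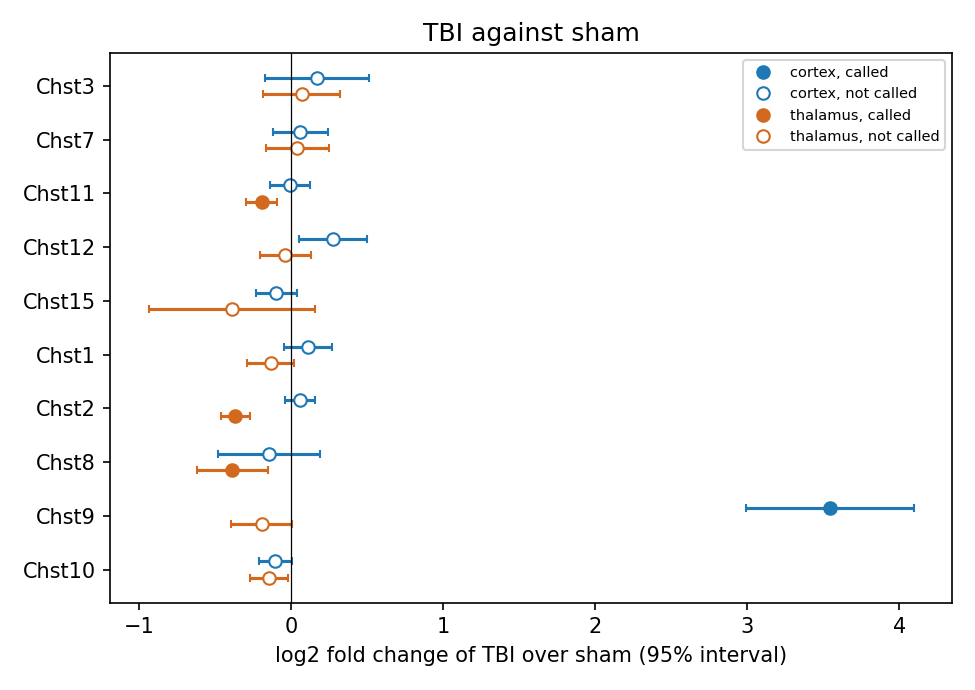
Log2 fold change of TBI over sham for each of the 10 sulfotransferases (x axis, log2 units) in cortex and thalamus, with 95% intervals from limma and 6 rats per group. Filled points passed an adjusted p of 0.05. Chst9 in the cortex stands at 3.55, and Chst2, Chst8 and Chst11 in the thalamus lie between -0.39 and -0.19.

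Chst9, a GalNAc-4-O-sulfotransferase of N-glycans, showed the largest difference of any member. In sham cortex its normalized count was 4.29 in the lowest library, 6.80 at the median and 11.8 in the highest, resting on 4 to 11 fragments per library. In TBI cortex the lowest library had 65.5, the median was 90.2 and the highest library had 142, from 55 to 167 fragments. All 6 TBI libraries lay above all 6 sham libraries, a separation found at 12.5% of the loci tested in the cortex. The mean of 95.9 ± 25.4 (SD, n = 6) in TBI cortex was 12.6 times the mean of 7.63 ± 3.43 in sham cortex (limma log2 fold change 3.55 with a standard error of 0.259 and an adjusted p = 1.31e-06). Chst9 passed the filter on low values through its TBI libraries, since its sham mean was below 10. It was called in all 24 alternative analyses, with log2 fold changes between 3.01 and 3.71, and the value was 3.52 without the 6 libraries rich in choroid plexus transcripts.

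In the thalamus Chst9 was far more abundant and did not pass the test. Its normalized count was 464 in the lowest sham library, 546 at the median and 613 in the highest, and in TBI thalamus these values were 383, 486 and 515. The groups overlapped, with 2 of 6 TBI libraries below all sham libraries (log2 fold change -0.20, 95% interval -0.40 to 0.0066, adjusted p = 0.124). From low to high, the groups stood in the order sham cortex, TBI cortex, TBI thalamus and sham thalamus. The last pair in this order did not differ beyond its spread by this test. TBI cortex thus reached a level between those of the uninjured regions, 4.90-fold below TBI thalamus.

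**Figure D2:**
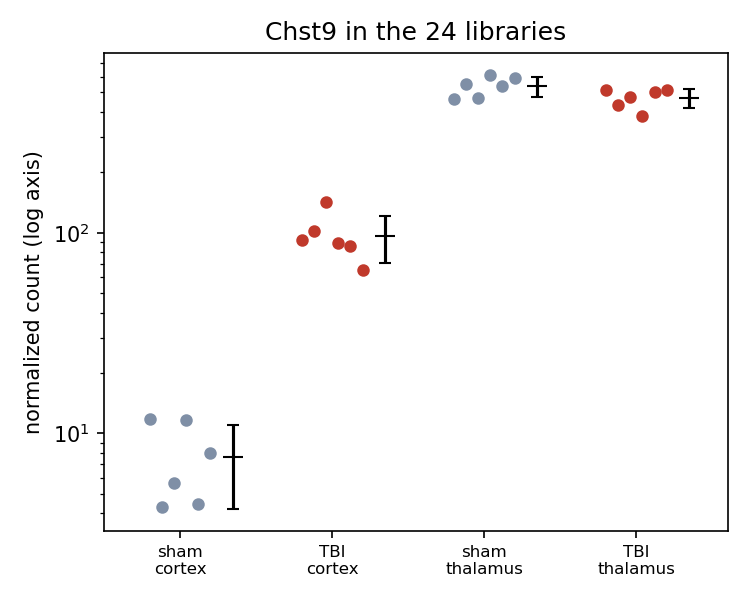
Normalized count of Chst9 in each of the 24 libraries (y axis, log scale), by group. Each point is 1 rat, and the black marks are mean and SD over 6 rats. TBI cortex (65.5 to 142) lies above sham cortex (4.29 to 11.8) without overlap and below both thalamus groups.

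Several cell type markers moved in the same cortex libraries, where 29.2% of all loci tested were called. Of 9 astrocyte markers 6 were called higher and 2 lower, with summed normalized counts of 377832 to 398602 in sham cortex and 414333 to 462826 in TBI cortex. The largest part of that sum was Slc1a2, 1 of the 2 called lower. The sum therefore does not show the size of the rises of Gfap (log2 fold change 2.26) and Vim (1.47). Of 12 microglia and macrophage markers 11 were called higher, with sums of 20235 to 22347 in sham and 28336 to 34569 in TBI cortex, and of 6 oligodendrocyte precursor markers 4 were called higher, with sums of 9968 to 12007 and 11850 to 14308. No marker of these 3 lists was at or under 3 fragments in any library. Of 10 neuron markers 8 were called lower, with sums of 370021 to 400236 in sham and 247972 to 341823 in TBI cortex. Thalamus identity genes had a sum of 1843 to 2145 in sham cortex and 1508 to 2042 in TBI cortex, and Gbx2, a thalamic transcription factor, was at or under 3 fragments in 6 of 6 sham and 4 of 6 TBI cortex libraries. Of the other thalamus identity genes, Tcf7l2 was called higher (log2 fold change 0.46) and Rora lower (-0.38) in TBI cortex. The part of any of these lists in the Chst9 result was not tested. In tissue pieces, more cells that express a gene and more RNA per cell cannot be told apart, and this holds for every member below.

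The promoter window of Chst9 is shown because the gene had the largest difference, and it holds the fewest CpG of the 9 members with a window (Chst1 has none). It covers 250 bases before and 50 after a RefSeq start site in build GRCr8, at chr18:7090735-7091034 on the minus strand, and runs from upstream to downstream. Capitals would mark GC boxes (GGGCGG on either strand), and it holds none.
Chst9: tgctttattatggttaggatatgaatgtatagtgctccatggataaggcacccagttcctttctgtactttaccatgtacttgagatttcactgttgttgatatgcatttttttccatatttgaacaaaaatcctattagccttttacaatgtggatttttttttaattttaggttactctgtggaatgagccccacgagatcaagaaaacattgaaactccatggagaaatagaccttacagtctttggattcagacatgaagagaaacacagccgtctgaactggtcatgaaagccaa
The window has 36.3% G and C and 2 CpG. Fewer CpG are found in 13.6% of 33469 RefSeq promoter windows of the same length. This start site lies 34438 bases inside the end of the RefSeq gene, which spans 6850874 to 7125222, so other start sites of the gene are not covered by it.

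Chst2, an N-acetylglucosamine-6-O-sulfotransferase, was lower in TBI thalamus in every rat. Its normalized count in sham thalamus was 7549 in the lowest library, 7750 at the median and 8073 in the highest, and in TBI thalamus 5559, 6027 and 6479. The highest TBI library was thus below the lowest sham library, a separation in either direction seen at 18.2% of loci tested in the thalamus and at 1 of the 10 members. The mean was 6044 ± 353 in TBI and 7796 ± 201 in sham thalamus, a fall of 22.5% by the ratio of means (log2 fold change -0.37, standard error 0.0446, adjusted p = 2.97e-05). Chst2 was called in all 24 alternatives, with log2 fold changes between -0.39 and -0.32. In the cortex its means were 9062 ± 222 in TBI and 8720 ± 543 in sham rats, and the groups overlapped (log2 fold change 0.057, 95% interval -0.040 to 0.15).

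Chst11, a chondroitin 4-O-sulfotransferase, was lower in TBI thalamus by a smaller step. Sham thalamus had a lowest normalized count of 2218, a median of 2403 and a highest of 2441, and TBI thalamus had 1946, 2038 and 2306. In 5 of 6 TBI libraries it was below all sham libraries (log2 fold change -0.19, standard error 0.0474, adjusted p = 0.00544), and it was called in all 24 alternatives. In the cortex its means of 1856 ± 139 in TBI and 1867 ± 130 in sham rats lay close together (log2 fold change -0.0094, 95% interval -0.14 to 0.12).

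Chst8, the relative of Chst9 with the same type of substrate, was the third member lower in TBI thalamus. Sham thalamus ranged from 624 to 993, with a median of 799.8, and TBI thalamus from 532 to 708, with a median of 568.2. The groups overlapped, with 4 of 6 TBI libraries below all sham libraries (log2 fold change -0.39, standard error 0.110, adjusted p = 0.0136). This call was lost with edgeR on recovered fragments (log2 fold change -0.28, adjusted p = 0.06) and without the 6 libraries rich in choroid plexus transcripts (-0.32, adjusted p = 0.0955). The edgeR fit also lacked the sham library of rat 55, the highest at 993. With limma the call was kept in 12 of 12 fits that each left out 1 library. In the cortex Chst8 was at 319 ± 66.8 in TBI and 352 ± 67.7 in sham rats (log2 fold change -0.15, 95% interval -0.48 to 0.19).

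**Figure D3:**
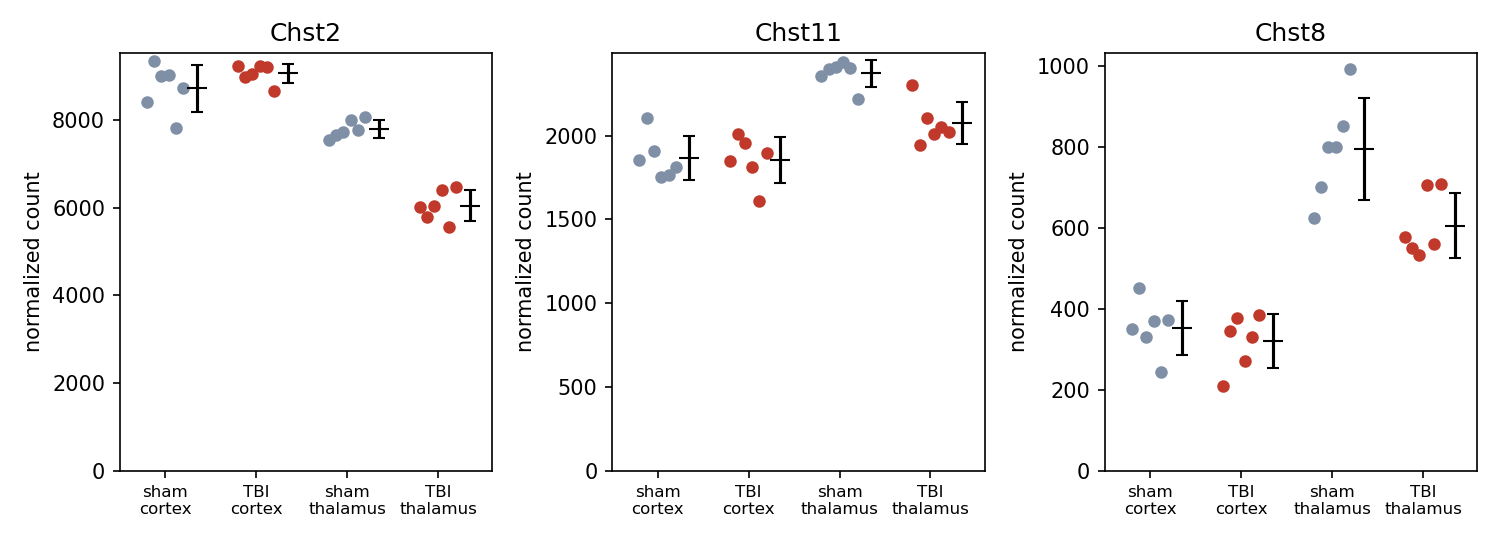
Normalized counts (y axis, linear, starting at 0) of Chst2, Chst11 and Chst8 in each library by group. Each point is 1 rat, and the black marks are mean and SD over 6 rats. For Chst2 the TBI thalamus points (5559 to 6479) lie below all sham thalamus points (7549 to 8073), while for Chst11 and Chst8 the thalamus groups overlap.

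Cell type markers also moved in the thalamus libraries, where 35.4% of all loci tested were called. Of 10 neuron markers 8 were called lower, with summed normalized counts of 261366 to 315706 in sham and 173326 to 215078 in TBI thalamus. Astrocyte markers were called higher for 6 of 9 and microglia and macrophage markers for 12 of 12. The markers' part in the thalamic differences was not tested. Scaling between libraries shifted the balance of the whole thalamus comparison, in which lower loci made up 59% of those called on the values as deposited and 48% after upper quartile scaling. Chst2, Chst8 and Chst11 were called lower under both.

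The promoter windows of these 3 genes are shown because the genes were lower together, with GC boxes (GGGCGG on either strand) in capitals. They follow RefSeq in build GRCr8 and lie at chr8:104845912-104846211 for Chst2, chr7:22630392-22630691 for Chst11 and chr1:96572831-96573130 for Chst8, all on the minus strand.
Chst2: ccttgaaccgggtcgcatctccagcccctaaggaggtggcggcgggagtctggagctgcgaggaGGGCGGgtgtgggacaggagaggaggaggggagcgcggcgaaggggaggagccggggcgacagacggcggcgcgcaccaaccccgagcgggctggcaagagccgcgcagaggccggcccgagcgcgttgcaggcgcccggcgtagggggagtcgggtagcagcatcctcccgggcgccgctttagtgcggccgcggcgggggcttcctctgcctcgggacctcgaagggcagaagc
Chst11: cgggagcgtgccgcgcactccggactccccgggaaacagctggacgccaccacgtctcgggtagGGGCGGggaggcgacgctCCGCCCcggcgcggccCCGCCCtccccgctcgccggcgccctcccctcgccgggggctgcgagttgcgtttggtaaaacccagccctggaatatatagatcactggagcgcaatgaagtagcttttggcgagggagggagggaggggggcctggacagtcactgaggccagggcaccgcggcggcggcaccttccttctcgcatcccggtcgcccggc
Chst8: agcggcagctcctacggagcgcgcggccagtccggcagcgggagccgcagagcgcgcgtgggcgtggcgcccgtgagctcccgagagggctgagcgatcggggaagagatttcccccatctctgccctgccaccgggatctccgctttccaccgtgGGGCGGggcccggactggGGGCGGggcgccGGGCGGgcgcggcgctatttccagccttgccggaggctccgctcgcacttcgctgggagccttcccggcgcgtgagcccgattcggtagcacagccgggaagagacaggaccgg
The Chst2 window has 1 GC box, and those of Chst11 and Chst8 have 3 each. They hold 36, 35 and 40 CpG, where the median of all windows was 7.

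Over the 9 members with a window 6 held a GC box, against 33.1% of all windows. A TATA box (TATAAA) occurs in 14.2% of all windows and the STAT core TTCNNNGAA in 8.87%, and neither lies in a member's window. Among the other members, Chst10 had 27 CpG, Chst7 had 17, Chst3 had 15, Chst15 had 8 and Chst12 had 4. The windows of Chst9, Chst12 and Chst15, which had the fewest CpG, are also the 3 whose start site lies over 1000 bases inside the gene's end. The 3 members called lower in TBI thalamus with all libraries are those with the most CpG. This match was lost without the 6 libraries rich in choroid plexus transcripts, where Chst15, with 8 CpG, was called in place of Chst8. A link between CpG and the TBI difference was not tested. These matches describe the letters of the windows and not the use of any site.

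Chst15, which adds the second sulfate that turns chondroitin sulfate A into chondroitin sulfate E, had a thalamus result that depended on 1 rat. Sham thalamus had a lowest normalized count of 316, a median of 372 and a highest of 507. In TBI thalamus rat 52 had 217, rat 56 had 219, rat 63 had 249.5, rat 24 had 264, rat 22 had 268 and rat 45 had 765. The 5 TBI rats other than rat 45 lay below all sham rats, and rat 45 lay above them all. With all 12 libraries Chst15 was not called (log2 fold change -0.39, 95% interval -0.94 to 0.16, adjusted p = 0.258). Without the thalamus library of rat 45 it was called lower (-0.67, adjusted p = 7.61e-04), and so it was without all libraries rich in choroid plexus transcripts (-0.73, adjusted p = 0.00168).

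The thalamus library of rat 45 also had the highest choroid plexus sum, 260044, against 715 to 1825 in the other TBI thalamus libraries. The sham thalamus libraries of rats 34 and 50 had sums of 67704 and 107356, and their Chst15 counts of 363 and 338 lay inside the range of the other sham libraries. The thalamus library of rat 45 stood apart at some other genes too. Bgn, a matrix proteoglycan, was at 3572 against 686 to 937 in the other TBI thalamus libraries. For Dcn, another matrix proteoglycan, these values were 1620 and 206 to 445. Whether the choroid plexus transcripts or other features of this library bear on the Chst15 count of rat 45 was not tested. In the cortex Chst15 means were 2047 ± 182 in TBI and 2187 ± 142 in sham rats (log2 fold change -0.098, 95% interval -0.23 to 0.037), and the cortex library of rat 45, at 2265, was the highest of its group.

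**Figure D4:**
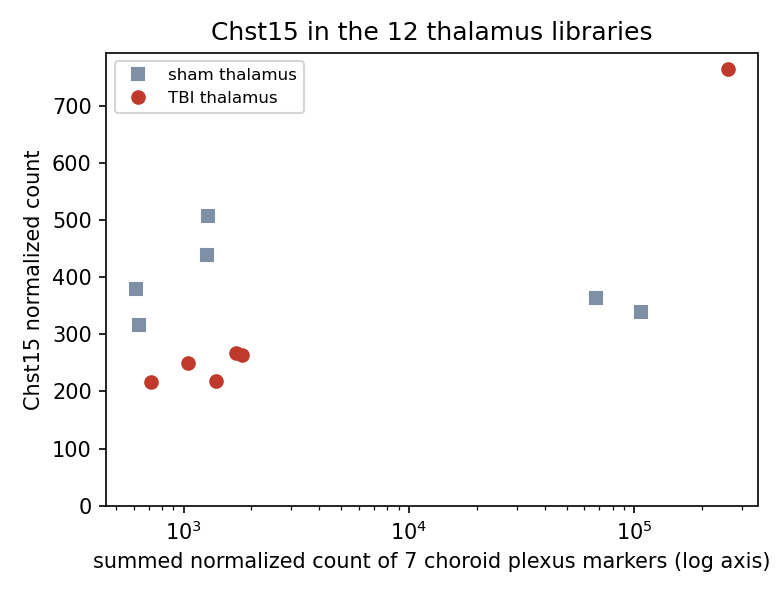
Chst15 normalized count (y axis, linear) in the 12 thalamus libraries against the summed normalized count of 7 choroid plexus markers in the same library (x axis, log scale). Squares are sham and circles TBI rats. The circle at 765 is rat 45, and the other 5 TBI rats lie between 217 and 268, below all sham rats.

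The remaining chondroitin enzymes were not called between TBI and sham in the main fit of either region. Chst12, a second chondroitin 4-O-sulfotransferase, came closest in the cortex, with a lowest, median and highest normalized count of 394, 501 and 557 in sham and 512, 559 and 745 in TBI rats. The groups overlapped, with 3 of 6 TBI libraries above all sham libraries (log2 fold change 0.27, standard error 0.104, adjusted p = 0.0602), and 8 of 24 alternatives called it, with adjusted p between 0.0266 and 0.332. In the thalamus Chst12 had means of 602.5 ± 70.0 in TBI and 617 ± 33.2 in sham rats, with a 95% interval of -0.21 to 0.13 around -0.040.

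Chst3, the main chondroitin 6-O-sulfotransferase, was not called in either region. Its normalized counts ran from 193 to 364 in sham cortex and from 248 to 457 in TBI cortex (log2 fold change 0.17, 95% interval -0.18 to 0.51), and from 425 to 606 in sham and 402 to 627 in TBI thalamus (0.069, interval -0.19 to 0.32). Chst7, which can sulfate chondroitin and N-acetylglucosamine, had means of 331 ± 35.6 and 318 ± 27.5 in TBI and sham cortex and of 396 ± 64.6 and 382 ± 26.6 in TBI and sham thalamus, with log2 fold changes of 0.058 and 0.040. The Chst7 locus of 223098 bases overlaps the loci of Slc9a7 and ENSRNOG00000048171, so its counts may include reads of neighbours.

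Neither Chst1, the galactose 6-O-sulfotransferase of keratan sulfate, nor Chst10, the HNK-1 sulfotransferase, was called in either region. Chst1 had means of 6887 ± 659.7 and 6398 ± 659.8 in TBI and sham cortex (log2 fold change 0.11, 95% interval -0.050 to 0.26) and of 6530 ± 759.9 and 7148 ± 431 in TBI and sham thalamus (-0.14, interval -0.29 to 0.019). Chst10 had means of 3217 ± 190.3 and 3457 ± 176 in the cortex (log2 fold change -0.10, adjusted p = 0.133) and of 3192 ± 230.2 and 3533 ± 231 in the thalamus (-0.15, adjusted p = 0.0632). In the thalamus 3 of 6 TBI rats were below all sham rats for each of them. Chst10 was called lower there in 2 alternatives, with all 24 libraries in 1 fit (adjusted p = 0.0324) and without sham rat 34 (adjusted p = 0.0446).

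An interaction term fitted to all 24 libraries tested whether the TBI difference itself differed between cortex and thalamus. This main fit did not pair the regions of a rat, and the fit with the rat as replicate block was among the alternatives. Of the 10 members 2 were called, where 7.26% of 15678 loci were called, 4.54% with the lower and 2.72% with the higher difference in the thalamus. For Chst9 the log2 fold change of TBI over sham was 3.74 lower in the thalamus than in the cortex (interaction -3.74, standard error 0.278, adjusted p = 1.22e-08). For Chst2 the interaction was -0.43 (standard error 0.0605, adjusted p = 9.80e-05). Both were called in all 24 alternatives. The member interactions ran from -3.74 to -0.018, with a median of -0.24 against -0.015 over all loci, where the quartiles were -0.175 and 0.125. The median over all loci depended on scaling and was 0.011 with upper quartile scaling. The members were measured in the same 24 libraries, so their signs are not independent of each other. The values of Chst7 (-0.018) and Chst10 (-0.043) were near 0 and changed sign in some alternatives. Chst15 joined the called members without rat 45 (-0.54, adjusted p = 0.0184) and without the 6 libraries rich in choroid plexus transcripts (-0.64, adjusted p = 0.0317). Chst11 (-0.19, adjusted p = 0.140) and Chst8 (-0.24, adjusted p = 0.525) were not called, so a difference between regions was not shown for them.

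The regions themselves were compared next, to place each enzyme. In sham rats 9 of the 10 members were called between thalamus and cortex, 7 higher and 2 lower in the thalamus, where 62.2% of 15582 loci were called, 33.9% as higher and 28.3% as lower. Groups did not overlap for 6 members and for 43.1% of loci. Chst9 had the largest estimate, with a mean in sham thalamus of 538 ± 61.4 that was 70.5 times the sham cortex mean (log2 fold change 6.05, adjusted p = 2.06e-12). It passed the filter on low values here through its thalamus libraries, since the cortex mean of 7.63 was below 10. In the same rat the ratio of thalamus to cortex ran from 39.2 to 129. Chst8 (log2 fold change 1.18), Chst3 (0.78), Chst11 (0.35) and Chst12 (0.35) were higher in the thalamus, each with a higher value in 6 of 6 rats. Chst15 went the other way, with a mean of 390.5 ± 70.8 in sham thalamus and 2187 ± 142 in sham cortex (log2 fold change -2.50, adjusted p = 4.76e-12), and its thalamus value was 0.148 to 0.220 of the cortex value of the same rat.

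Smaller regional differences in sham rats were those of Chst7 (log2 fold change 0.27, adjusted p = 0.00609), Chst1 (0.16, adjusted p = 0.0385) and Chst2 (-0.16, adjusted p = 0.00548). Without the libraries rich in choroid plexus transcripts none of these 3 was called, with adjusted p of 0.0557, 0.117 and 0.0730, and 6 members were. The Chst1 call was also lost with TMM scaling, edgeR, DESeq2 or all 24 libraries in 1 fit, and without rat 26, 34 or 38. These fits did not pair the regions of a rat. Within rats the thalamus value was higher in 6 of 6 sham rats for Chst1 and Chst7 and in 0 of 6 for Chst2. All 3 stayed called with the rat as replicate block. Chst10 stood at 3533 ± 231 in thalamus and 3457 ± 176 in cortex and was not called (0.031, adjusted p = 0.614).

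In TBI rats 6 members were called between the regions, 4 higher and 2 lower in the thalamus, where 57.5% of 15737 loci were called, 31.0% as higher and 26.5% as lower. Groups did not overlap for 4 members and for 36.0% of loci. The Chst9 difference was 4.90-fold (log2 fold change 2.31, adjusted p = 6.59e-09), with ratios in the same rat from 3.33 to 7.86. Chst8 (0.94), Chst3 (0.68) and Chst11 (0.16, adjusted p = 0.0309) were higher in the thalamus. Chst15 (-2.79) and Chst2 (-0.59, adjusted p = 4.42e-08) were lower there. The Chst11 call was lost with edgeR (adjusted p = 0.0655) and without rat 22, 52, 56 or 63 (adjusted p = 0.109, 0.0676, 0.0899 and 0.0507). Chst7 was not called (0.25, adjusted p = 0.0605) but was with the rat as replicate block (0.25, adjusted p = 0.0152), with upper quartile scaling (adjusted p = 0.0496) and with all 24 libraries in 1 fit (adjusted p = 0.0219). Without the libraries rich in choroid plexus transcripts 6 members were called in TBI rats.

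**Figure D5:**
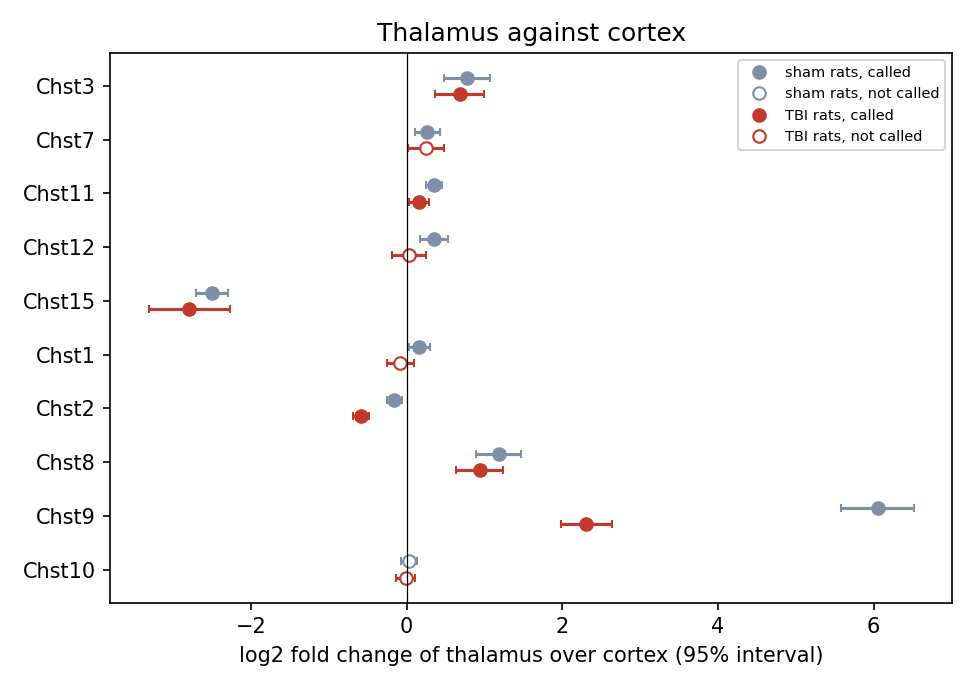
Log2 fold change of thalamus over cortex for each member (x axis, log2 units) in sham and TBI rats, with 95% intervals from limma and 6 rats per group. Filled points passed an adjusted p of 0.05. Chst9 lies at 6.05 in sham and 2.31 in TBI rats, and Chst15 at -2.50 and -2.79.

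For the 3 called members with the largest TBI differences, the named loci with the most similar pattern over the 24 libraries were sought among 15678 loci. Likeness was the root mean square difference of z-scored log2 values, and since all libraries share the 4 groups it mainly reflects the group means. Closest to Chst9 were Cidea (0.250), a lipid droplet protein, Tnc (0.260), the matrix glycoprotein tenascin-C, and Scn7a (0.274), a sodium channel. Cidea had a mean normalized count of 12.4 in sham and 55.4 in TBI cortex, and 579 and 415 in the thalamus, and Tnc had 314 and 796 in the cortex. Closest to Chst8 were the neuropeptide precursor Vgf (0.275) and the potassium channels Kcnj12 (0.294) and Kcnh2 (0.307). Closest to Chst2 were Shc2 (0.292), Otud7a (0.293) and Pnkd (0.300).

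Of the 4 other loci with a Chst name, 2 were tested in each region. Chst14, the dermatan 4-O-sulfotransferase, was higher in TBI rats in both, with means of 108 ± 27.9 and 69.4 ± 7.61 in TBI and sham cortex (log2 fold change 0.59, adjusted p = 0.0167) and of 111 ± 23.6 and 79.2 ± 13.1 in the thalamus (0.47, adjusted p = 0.0311). Both Chst14 calls were lost without the 6 libraries rich in choroid plexus transcripts (0.52 and 0.43, adjusted p = 0.0861 and 0.0843 by limma). Chst5, an N-acetylglucosamine-6-O-sulfotransferase, was lower in TBI thalamus, at 515 ± 97.7 against 686 ± 65.8 (-0.43, adjusted p = 0.00814), and in the cortex, at 59.6 ± 4.99 against 52.4 ± 11.3, it was not called (0.21, adjusted p = 0.321). Chst5 was picked out after its values were seen. Chst4 and Chst13 were too low for the filter.

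Among all 20 tested sulfotransferases outside the 10 members, 5 were called higher and 3 lower in TBI cortex, with a median log2 fold change of 0.024. The 8 calls became 1 without the 6 libraries rich in choroid plexus transcripts. In the thalamus 4 were higher and 6 lower, with a median of -0.066, and the 10 calls became 5 without those libraries. Of all loci 29.2% were called in the cortex and 35.4% in the thalamus. Without those libraries fewer samples were fitted, here and for the lists below. Calls over all loci then fell from 4531 to 2162 in the cortex and from 5516 to 4241 in the thalamus. Besides Chst14, the heparan sulfotransferase Hs3st6 rose in the cortex (0.88), where Hs6st3 (-0.45) and Hs3st2 (-0.30) fell. In the thalamus the galactose sulfotransferase Gal3st4 rose (0.45), while Hs6st2 (-0.69) and Gal3st3 (-0.59) fell.

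Of 9 genes for the supply of the sulfate donor, 2 were called higher and 1 lower in each region. These counts were near the share of all loci called, 29.2% in the cortex and 35.4% in the thalamus. The 3 calls in the cortex became 1 without the libraries rich in choroid plexus transcripts and 5 without TBI rat 63. Slc26a2, the plasma membrane sulfate transporter, rose by a log2 fold change of 0.71 in the cortex (adjusted p = 0.00711) and of 0.76 in the thalamus (adjusted p = 6.15e-04). Papss2, a PAPS synthase, rose in the cortex (0.22) and fell in the thalamus (-0.16), in each case with an adjusted p near the threshold (0.0491 and 0.0484). Bpnt1, which clears the used donor, fell in the cortex (-0.17), and Slc35b3, a Golgi PAPS transporter, rose in the thalamus (0.40).

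Enzymes that build chondroitin and dermatan chains had calls in both directions, beside 14.3% of all loci called higher and 14.9% lower in the cortex. For the thalamus those shares of all loci were 14.5% and 20.9%. In the cortex 1 of 14 rose, the dermatan epimerase Dse (0.47), and 3 fell, among them Pxylp1 (-0.28, listed under its older name Acpl2) and Fam20b (-0.21), the phosphatase and kinase of the linkage xylose. The 4 calls became 2 without the libraries rich in choroid plexus transcripts. In the thalamus 1 rose, again Dse (0.73, adjusted p = 0.0443), and 6 fell, led by the chain polymerising factor Chpf (-0.47) and the linkage glucuronyltransferase B3gat3 (-0.33). Dse in TBI thalamus was at 755 in rat 45 and between 229 and 318 in the other rats, and without rat 45 its log2 fold change was 0.48 (adjusted p = 0.0478). With edgeR the 7 calls became 4. Of 8 genes for heparan chains 2 rose and 2 fell in each region, and the 4 calls in the cortex became 2 without the libraries rich in choroid plexus transcripts. Sulf1, an extracellular endosulfatase, rose in both (1.02 and 1.49), Ext2 (0.16) rose and Ext1 (-0.27) and Extl2 (-0.21) fell in the cortex, and Sulf2 (0.335) rose and Extl3 (-0.46) and Extl2 (-0.35) fell in the thalamus.

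Among 8 genes for the acceptors of Chst10, Chst1 and Chst2, 3 rose and 1 fell in the cortex, and 1 rose and 2 fell in the thalamus. Of all loci 29.2% were called in the cortex and 35.4% in the thalamus, and the thalamus count was near that share. The 4 calls in the cortex became 1 without the libraries rich in choroid plexus transcripts, and 2 without any one of sham rats 26 and 50 and TBI rats 22, 24, 45 and 56. The galactosyltransferase B4galt1 rose in both (0.65 and 0.87), B4galt4 (0.39) rose and Fut8 (-0.17) fell in the cortex, and in the thalamus B3gat2 (-0.65), a glucuronyltransferase of the HNK-1 epitope, and B3gnt2 (-0.19) fell. Of 14 lysosomal enzymes that take sulfated chains apart, 8 were called higher and 1 lower in the cortex, and 8 higher and 2 lower in the thalamus. Without the libraries rich in choroid plexus transcripts the 9 calls in the cortex became 4. Examples were Gusb (0.57) and Naglu (0.56) in the cortex and Galns (0.64) in the thalamus. Hgsnat fell in both (-0.13 and -0.29), and Arsa fell in the thalamus (-0.26).

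The proteins that carry the chains showed calls at 14 of 20 genes in the cortex, 8 higher and 6 lower, and at 9 in the thalamus, 3 higher and 6 lower. Of all loci 29.2% were called in the cortex and 35.4% in the thalamus. The 14 calls became 7 without the libraries rich in choroid plexus transcripts and 9 with all 24 libraries in 1 fit. Without those rich libraries the calls over all loci in the cortex also fell, from 4531 to 2162. Cd44, a hyaluronan receptor that can carry chondroitin sulfate, rose in both (2.08 and 1.80), as did Cd74 (1.04 and 1.82). Sv2c, a synaptic vesicle protein with keratan sulfate, fell in both (-0.41 and -1.01), Sv2b fell in the cortex (-0.30), and Acan, the lectican of perineuronal nets, fell in the thalamus (-1.12, adjusted p = 2.23e-06).

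Some of these calls rested near the threshold. Leaving out 1 of the 12 libraries of a region at a time ended the call of Hs3st2 for 9 libraries, of Papss2 for 10, of Ext2 for 6, of Fut8 for 10, of Hgsnat for 10 and of Sv2c for 11 in the cortex. In the thalamus it ended the call of Chst14 for 5 libraries, of Papss2 for 9 and of Dse for 7. The call of the astrocyte marker Slc1a2 in the cortex ended for 7 libraries.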

How the data were processed

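Messenger RNA libraries of perilesional cortex and ipsilateral thalamus from 6 TBI and 6 sham rats, 24 in all, were analysed, grouped by their labels. Per the labels and the study's methods the authors prepared strand-specific mRNA libraries and aligned the reads with TopHat2 2.0.11 and Bowtie2 2.2.2, and assembled and quantified loci with Cufflinks 2.2.1 and Cuffdiff. The deposited values (signal) are fragment numbers, each scaled by the authors with one factor per library. In each library 100% of low values were whole multiples (within 0.1) of 1 step, taken as 1 fragment, which gave the depth of 30568928 to 54608919 fragments and a floor of 3 fragments, both covering counting error only. The step of 1 sham thalamus library (rat 55) lay too near 1 to be checked, so count models used 23 libraries. The labels list build Rnor_5.0, and the methods name RGSC3.4 as reference genome with Rnor_5.0 as guiding annotation. Transcript lengths were not used here, so levels of different genes were not compared. Loci without a gene name (37.1% of 42334) were left out, and some listed genes are not reported here.

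The members and gene lists were chosen with earlier results of these data known. Named genes are all members, and from each list at most the 2 called genes with the largest rise and the 2 with the largest fall per region. The 3 loci most like each of 3 members, taken by their largest called TBI difference, were named too. Outside this rule, the tissue identity genes Lhx9 and Gbx2 and the family member Chst5 were chosen after their values were seen. So were the proteoglycans Bgn and Dcn. Comparisons used limma 3.58.1 in R 4.3.3 (eBayes with a mean trend) on log2(value + 1) for named loci with a mean of at least 10 in the libraries fitted, and calls were made at a Benjamini-Hochberg adjusted p under 0.05. The study ran Cuffdiff on alignments, which a table does not allow. Alternatives were TMM and upper quartile scaling, no filter on low values or one at a mean of 50, a pseudocount of 0.1 or 5, limma-voom, edgeR 4.0.16 and DESeq2 1.42.0 on recovered fragments (4435 and 4964 loci called in the cortex, 4183 and 4737 in the thalamus), a threshold of 0.01, all 24 libraries in 1 fit, the rat as replicate block, and leaving out each library or rat. Leaving out the 6 libraries with choroid plexus sums over 10000 was added after the data were seen. By the rat numbers in the labels each rat gave both regions, so the numbers pair the samples. Across loci, the deviations from the group mean in the cortex and thalamus of one rat had a median correlation of 0.187 (0.00393 to 0.569), above 0.1 in 10 of 12 rats. Scripts were tested on simulated data. Promoter windows came from RefSeq (GRCr8), which matched 9 of 10 members, and only letters were compared with them, since its coordinates are of another build. Python 3.11.15, pandas 2.3.3 and matplotlib 3.10.9 were used.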

Additional observations from a re-analysis of the deposited data

Results flagged for a closer look

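In all, 2 single values stood apart from the other 5 of their group by more than Dixon's limit at 95% for 6 samples (0.625). Groups numbering 40 were looked at, and chance alone would mark about 1 group in 20. Chst15 in TBI thalamus was at 765.1 in rat 45, with the other rats between 217 and 268. Chst7 in TBI thalamus was at 516 in rat 63, and without that library the log2 fold change of TBI over sham in the thalamus was -0.039, compared with 0.040 with it. Neither was called.

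The TBI difference of 2 members differed between the regions by the interaction test. For Chst9 the difference in thalamus minus that in cortex was -3.741 on the log2 scale (adjusted p = 1.22e-08 by limma), from a rise in the cortex. For Chst2 it was -0.4262 (adjusted p = 9.80e-05), from a fall in the thalamus.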

How the results depend on the processing

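Of 21 called member differences, 5 lost their call in at least 1 alternative and none changed sign. Over 50 member results and 1100 alternative values, 1043 kept direction and side of the threshold, 20 lost their call, 17 gained one and 20 changed sign, all at uncalled differences near 0. The number of members called in the cortex was 2 under TMM scaling, upper quartile scaling, edgeR, DESeq2 and all 24 libraries in 1 fit, and 1 to 2 when libraries were left out in turn (2 without sham rat 32 or 55 or TBI rat 63). With the rat as replicate block, Chst7 between the regions in TBI rats was called (0.248, adjusted p = 0.0152), and no other member call changed.

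The log2 differences that changed sign were Chst7 in the interaction (0.00809 under upper quartile scaling, 0.00429 without the libraries rich in choroid plexus transcripts), Chst10 between regions in TBI rats (2.93e-05 and 0.0341 under the same settings), Chst11 in the cortex (0.00429 under upper quartile scaling, 6.09e-05 with DESeq2), Chst12 in the thalamus (0.00943 with edgeR, 0.00572 with DESeq2) and Chst12 between regions in TBI rats (-0.00180 with edgeR). When libraries or rats were left out in turn, the ranges that crossed 0 were -0.0392 to 0.0830 for Chst7 in the thalamus, -0.0554 to 0.0289 for Chst7 and -0.0790 to 0.00352 for Chst10 in the interaction, -0.0329 to 0.0307 for Chst11 in the cortex, -0.0760 to 0.0184 for Chst12 in the thalamus, and, between regions in TBI rats, -0.144 to 0.0157 for Chst1, -0.0483 to 0.0341 for Chst10 and -0.0246 to 0.159 for Chst12. The causes were not tested. Without the 6 libraries rich in choroid plexus transcripts fewer samples were fitted. Over all loci the calls then fell from 4531 to 2162 in the cortex, from 5516 to 4241 in the thalamus and from 1138 to 422 in the interaction. At a threshold of 0.01 they were 2436 in the cortex, 3429 in the thalamus and 404 in the interaction. Counts of called genes in the lists moved by over 1.5 times in 57 of 816 alternatives. With 4 to 11 fragments in sham cortex, the size of the Chst9 ratio is limited by counting and by the pseudocount (log2 fold change 3.01 to 3.71).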
